A study of Mus musculus with 6 samples.

Results

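Gm10800 and Gm10801 on mouse chromosome 2 and Gm21738 on chromosome 14 are predicted genes that gave names to 9 of the 104 intervals in a deposited table of ATAC-seq peaks (sequencing of DNA that a transposase could reach, in which the enzyme cuts and tags open chromatin). All intervals that the table names for these 3 genes were taken. Gm10800 has 2 of them, Gm10801 has 1 and Gm21738 has 6. The genes were picked because of their high signal and because flox control 3 differed there from the other libraries. Those levels and that contrast are therefore given as a description, with no test.

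The 6 libraries came from epididymal white adipose tissue of mice. Of these, 3 were flox controls, in which recombination sites flank Armc5 sequence that was not deleted, and 3 were adipocyte-specific Armc5 knockouts (Armc5 KO). The sources used here do not give the Cre driver, the age of the mice or whether each library is a different animal. The spread behind the p-values may therefore be technical. The tissue also holds cells other than adipocytes, in which the deletion is not meant to occur. No interval was named for Armc5, for any of 10 adipocyte markers or for any of 15 markers of other cells, so neither the deletion nor the tissue could be checked by name.

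Gm10800, Gm10801 and Gm21738 are annotated in mouse gene catalogues as predicted genes, and no function is given for them here. The chromosome 2 locus is known in the mm10 assembly as a stretch related to the major satellite, the tandem repeat that makes up the heterochromatin beside mouse centromeres. Such stretches are commonly put on lists of regions excluded from ATAC-seq, because reads from many near-identical copies can be placed on the few copies that the assembly holds. The chromosome 2 stretch is among the deposited peaks, so no list holding it was used to remove them. The sources used here do not say whether any other list was applied or how reads with several matches were placed.

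The intervals formed a pair of compact loci (mm10). On chromosome 2 the Gm10801 interval ran from 98662238 to 98662959 (722 bp, annotated to intron 1 of 3 of a protein-coding transcript). Gm10800 interval 1 ran from 98665034 to 98665208 (175 bp) and was annotated as intergenic, 2180 bp from the Gm10800 start site. Gm10800 interval 2 ran from 98666241 to 98667315 (1075 bp) and was annotated, by its middle, to exon 4 of 5. Together they spanned 5078 bp. The distances in the table place the Gm10800 start site near 98667300, inside interval 2, with the gene running towards lower coordinates.

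On chromosome 14 the 6 Gm21738 intervals spanned 3171 bp, and the distances in the table place the start site near 19418930, also with the gene running towards lower coordinates. From the far end, interval 1 (19415725 to 19415930) lay at the transcription end site. Interval 2 (19416929 to 19417017) lay in exon 4 of 6 and interval 3 (19417215 to 19417390) in exon 3. Intervals 4 (19417801 to 19417942) and 5 (19418176 to 19418298) lay in intron 2, and interval 6 (19418755 to 19418895) in exon 2. Gaps between neighbours ranged from 197 to 998 bp. Except for interval 1, at 206 bp, these intervals were 89 to 176 bp wide.

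No interval of another name lay within 1 Mb of either locus. The nearest on chromosome 2, named for 1700092C17Rik, was 75.9 Mb away, and chromosome 14 held no other interval. In the RefSeq annotation of GRCm38.p6 the nearest genes to the chromosome 2 locus were the pseudogene Gm13806, 60.8 kb before it, and the long non-coding RNA gene Gm33780, 35.3 kb after it. For the chromosome 14 locus they were the pseudogene Gm9637, 10.6 kb before it, and the long non-coding RNA gene Gm41101, 66.0 kb after it.

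Fold enrichment is the value that the authors' peak caller gave each peak against its local background. The summit pileup, the number of fragments over the highest base, was solved from the fold and the p-value. The sources used here do not say whether the caller counted whole fragments or single reads. The word fragments stands for the counted unit. All 48 peaks of these genes gave 1 whole number each. The table holds no read totals. The median pileup over the 48 other-named intervals called in all 6 libraries stands in for depth, and its value for flox controls 1, 2 and 3 was 59.5, 63 and 38 fragments, and for Armc5 KO 1, 2 and 3 it was 42.5, 55.5 and 45. The summed pileup over the 55 intervals called in all 6 was 8085, 9624 and 11562 in the flox controls, and 6479, 8159 and 5909 in Armc5 KO. Of that sum, the 3 genes held 5033 in flox control 3 and 1464 to 2000 in the others. Flox control 3 was thus lowest by the median and highest by the sum. The median is therefore an uncertain measure of depth for that library. In flox control 3 the pileups did not keep the proportions of the other libraries. Over the 55 intervals called in all 6 libraries, its chi-square per degree of freedom against each of the other 5 was 29.98 to 54.7, against 0.881 to 3.91 for the 10 pairs without it. Without the intervals of these 3 genes the values were 17.7 to 33.4 and 0.725 to 3.21. Results that rest on flox control 3 are therefore also given without it.

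Every library called most of the 9 intervals. Flox control 1 had 9, flox control 2 had 8, flox control 3 had 7 and each Armc5 KO library had 8. Of the 9, 7 were called in all 6 libraries, as were 55 of all 104 intervals, and 8 had a peak in both groups. Of the 104, flox controls 1, 2 and 3 called 94, 97 and 64, and Armc5 KO 1, 2 and 3 called 85, 88 and 75. Flox control 3 thus called the fewest over the whole set too. No library had more than 1 peak in any of them. Gm21738 interval 2 was called in flox control 1 only, with a fold of 7.05 and a pileup of 69 fragments (exact Poisson 95% interval 53.7 to 87.3, counting error only). Gm21738 interval 5 was called in every library except flox control 3.

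Gm10800 interval 2, which covers the start site, was the tallest of the set. Its pileup was 944, 885 and 2480 fragments in the flox controls 1, 2 and 3, and 785, 918 and 692 in Armc5 KO 1, 2 and 3. It ranked 1 or 2 by pileup among all intervals of each library, but 18 to 36 by fold. Its fold enrichment was 19.4, 17.4 and 24.4 in the flox controls 1, 2 and 3, and 19.0, 17.4 and 19.5 in Armc5 KO 1, 2 and 3. Flox control 3 lay above all others on both scales, and the remaining 5 libraries lay within 692 to 944 fragments. The −log10 p was 2421 in flox control 3 and 618 to 838 in the others.

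At Gm10801 flox control 3 was again the highest. Its pileup was 299, 318 and 796 fragments in the flox controls 1, 2 and 3, and 268, 314 and 237 in Armc5 KO 1, 2 and 3. Its fold enrichment was 6.17, 6.28 and 7.84 in the flox controls, and 6.497, 5.96 and 6.69 in Armc5 KO. Flox control 3 exceeded the others by more in pileup (2.66 times the median of the other 5) than in fold (1.25 times).

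At Gm10800 interval 1, the narrow interval between them, pileup was 217, 315 and 888 fragments in the flox controls 1, 2 and 3, and 187, 306 and 158 in Armc5 KO 1, 2 and 3. Fold enrichment was 4.48, 6.22 and 8.74 in the flox controls, and 4.54, 5.81 and 4.47 in Armc5 KO. Flox control 3 was the highest, and flox control 2 and Armc5 KO 2 lay between it and the other 3 libraries. Both groups spanned a high and a low library, so the order did not follow genotype.

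**Figure D1:**
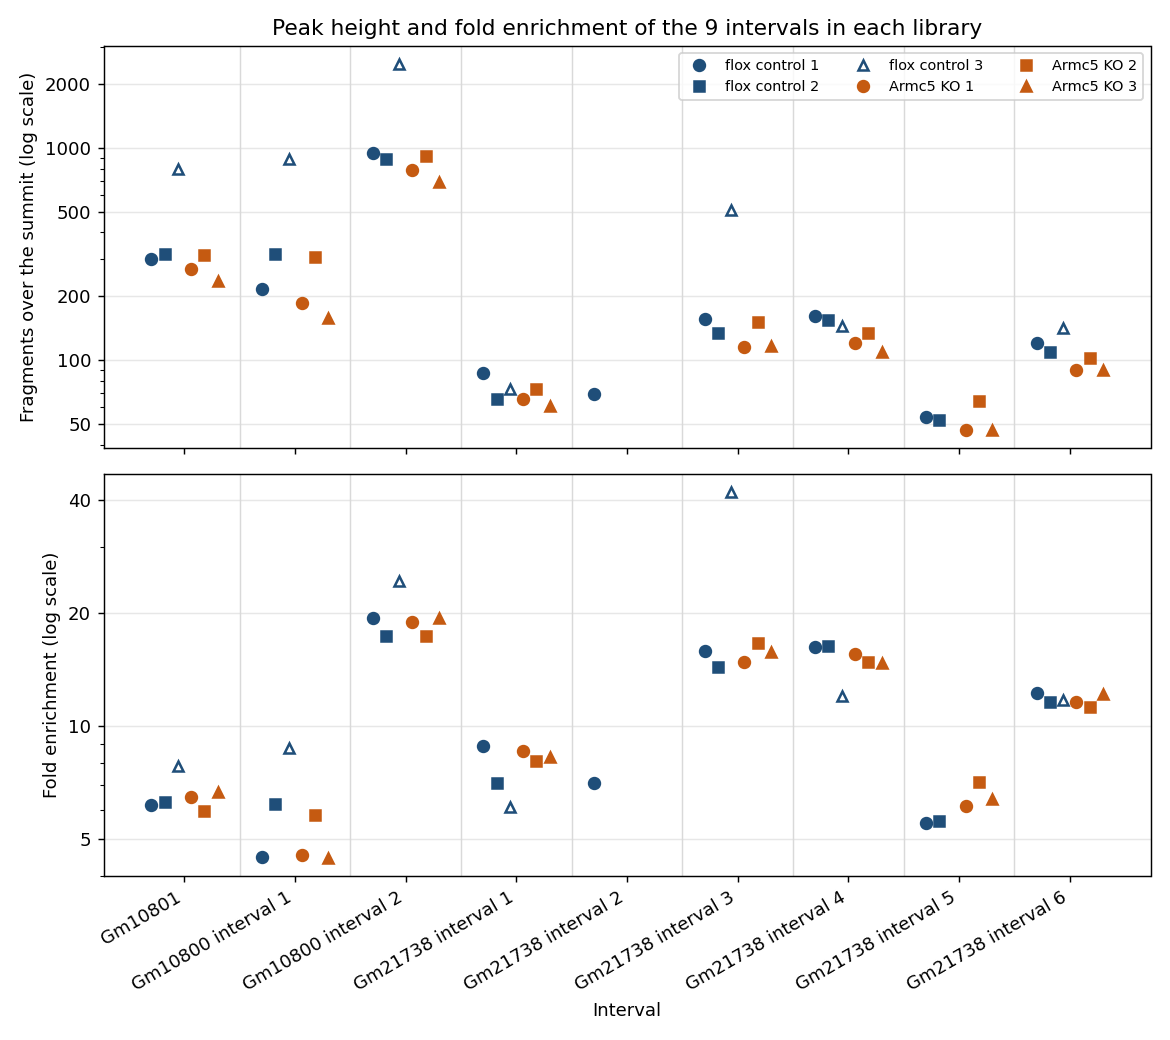
Fragments over the summit (top) and fold enrichment (bottom), both on log axes, for each of the 9 intervals; each symbol is 1 library, blue for flox control and orange for Armc5 KO, with flox control 3 drawn open. Flox control 3 stands highest in both panels at the 3 chromosome 2 intervals and at Gm21738 interval 3, where its 509 fragments compare with 115 to 157 in the other libraries.

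Among the Gm21738 intervals, flox control 3 stood far above the others in fold and in pileup not scaled for depth at interval 3 alone. There its pileup was 509 fragments (exact Poisson 95% interval 466 to 555, counting error only). Flox controls 1 and 2 had 157 and 135, and Armc5 KO 1, 2 and 3 had 115, 152 and 117. The highest of these, 157, had an interval of 133 to 184, also counting error only. The genes were picked on this contrast, so these error ranges are no test of it. Fold enrichment at interval 3 was 15.9, 14.4 and 42.0 in the flox controls, and 14.8, 16.7 and 15.8 in Armc5 KO. The other 5 libraries lay within a narrow range of fold, and both groups overlapped when flox control 3 was left out.

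Intervals 4 and 1 of Gm21738 went the other way in fold. At interval 4 the pileup was 161, 154 and 145 fragments in the flox controls 1, 2 and 3, and 121, 135 and 109 in Armc5 KO, so flox control 3 lay within the others. Its fold, 12.03, lay below the other flox controls (16.3 and 16.4) and below Armc5 KO 1, 2 and 3 (15.6, 14.9 and 14.7). At interval 1 the pileup was 87, 66 and 73 in the flox controls, and 66, 73 and 61 in Armc5 KO. The fold there was 8.86, 7.07 and 6.10 in the flox controls, and 8.57, 8.08 and 8.29 in Armc5 KO, lowest again in flox control 3.

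At interval 6, the closest to the start site, the pileup was 121, 109 and 142 fragments in the flox controls 1, 2 and 3, and 90, 102 and 90 in Armc5 KO. Fold enrichment there was 12.3, 11.6 and 11.8 in the flox controls, and 11.6, 11.2 and 12.2 in Armc5 KO, the closest agreement among libraries of any Gm21738 interval called in all 6. At interval 5 the fold was 5.54 and 5.60 in the flox controls 1 and 2, and 6.14, 7.098 and 6.42 in Armc5 KO 1, 2 and 3. These folds did not overlap, while the pileups did (54 and 52 fragments against 47, 64 and 47). The difference was not tested, since flox control 3 has no peak there. Among the 55 intervals called in all 6 libraries, folds of Armc5 KO lay wholly above those of flox control at 1.82%. That share compares 3 libraries with 3. At interval 5 only 2 flox controls enter, so non-overlap is easier to reach and the share is not a like base.

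The local background behind each fold was shared along a locus. In each library it differed between the intervals of a locus by at most 0.0756%, over summits up to 4805 bp apart on chromosome 2 and 3046 bp apart on chromosome 14. On chromosome 2 it was 47.7, 49.8 and 100.7 fragments in the flox controls 1, 2 and 3, and 40.4, 51.9 and 34.6 in Armc5 KO 1, 2 and 3. On chromosome 14 it was 8.93, 8.47 and 11.1 in the flox controls, and 6.81, 8.16 and 6.48 in Armc5 KO. The background of flox control 3 was thus 2.11 times the median of the other 5 at the first locus and 1.36 times at the second. The median background of that library over the other-named intervals was the lowest of the 6, at 1.23 fragments against 1.42 to 2.005. A raised background was not particular to these loci, since that of flox control 3 lay above all 5 others at 6 of the 48 other-named intervals. The ratio to the median of the others was 3.02 at Gm9075 and 2.47 at Gm44436, with pileup ratios of 2.51 and 2.13. At Gm21738 intervals 1 and 4 the pileup of flox control 3 was 1.11 and 1.07 times the median of the other 5, over this background, and its fold was 0.735 and 0.771 times theirs.

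Ratios between pileups at the same locus do not depend on depth and are not divided by the background. The background was not subtracted from the pileups, so a ratio can still shift with it. The ratio of Gm10801 to Gm10800 interval 2 was nearly constant, 0.321 in flox control 3 and 0.317 to 0.359 in the other 5 libraries. The ratio of Gm21738 interval 3 to interval 4 was 3.51 in flox control 3 and 0.877 to 1.13 in the others. The ratio of interval 1 to interval 4 was 0.503 in flox control 3, inside the range of the others (0.429 to 0.560). That of interval 6 to interval 4 was 0.979 against 0.708 to 0.826. By these ratios flox control 3 stood farthest from the others at Gm21738 interval 3, while on chromosome 2 the ratio of Gm10801 to Gm10800 interval 2 did not set it apart.

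Gm10800 interval 1 divided the libraries in another way. Its pileup relative to Gm10800 interval 2 was 0.356 in flox control 2, 0.358 in flox control 3 and 0.333 in Armc5 KO 2. It was 0.230 in flox control 1, 0.238 in Armc5 KO 1 and 0.228 in Armc5 KO 3. The summit of Gm10801 split the same libraries. It lay at 98662324 in flox control 1, Armc5 KO 1 and Armc5 KO 3, and at 98662723, 98662663 and 98662734 in flox control 2, flox control 3 and Armc5 KO 2. Each set held libraries of both genotypes, and the split was seen in these values, so it was not tested.

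**Figure D2:**
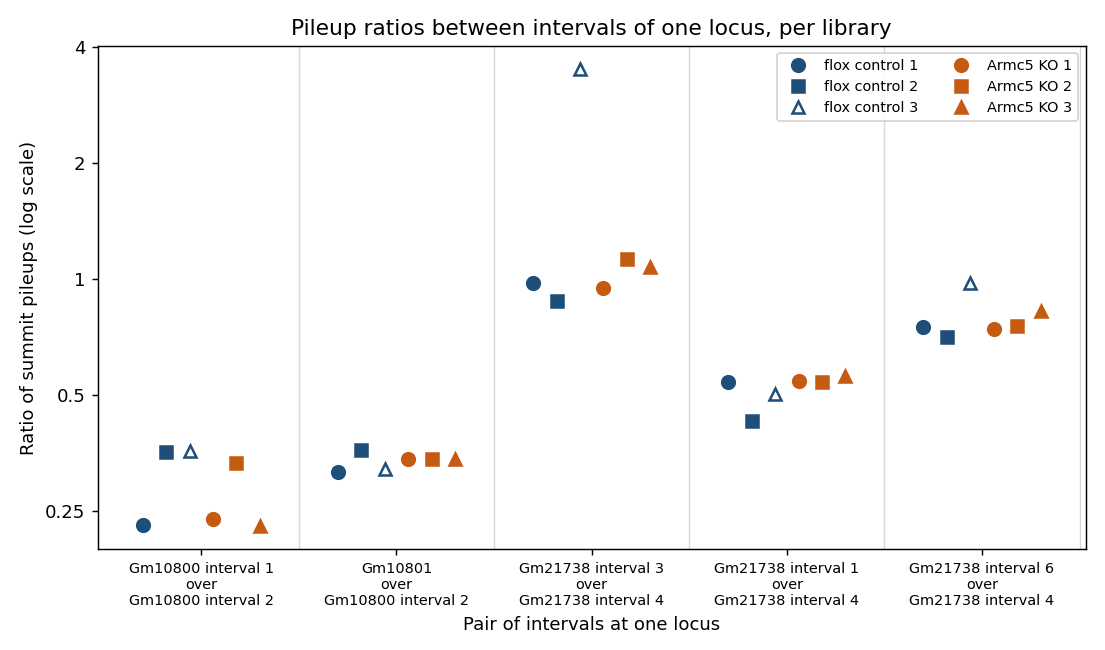
Ratio of summit pileups (log axis) between pairs of intervals at the same locus, 1 symbol per library as in the plot of values. For Gm21738 interval 3 over interval 4, flox control 3 stands at 3.51 against 0.877 to 1.13, and for Gm10800 interval 1 over interval 2 the libraries form a high set (0.333 to 0.358) and a low set (0.228 to 0.238).

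Apart from Gm10801 and Gm21738 interval 1, summits of an interval lay within 53 bp of each other. At Gm10800 interval 2 the summit was at 98667129 in 5 libraries, 171 bp downstream of the start site, and at 98667152 in flox control 3. At Gm21738 interval 6 it lay 110 to 128 bp, and at interval 4 it lay 1058 to 1087 bp, downstream of the start site. At interval 3 it ranged from 19417300 to 19417326, with flox control 3 inside that range at 19417310. Its peak there was the widest, 176 bp against 137 to 149 bp. At Gm21738 interval 1 flox control 3 differed in shape: its peak was 113 bp wide, against 192 to 206 bp, since it began at 19415817 while the other 5 began between 19415725 and 19415727. Its summit there was at 19415853, against 19415763 to 19415772.

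**Figure D3:**
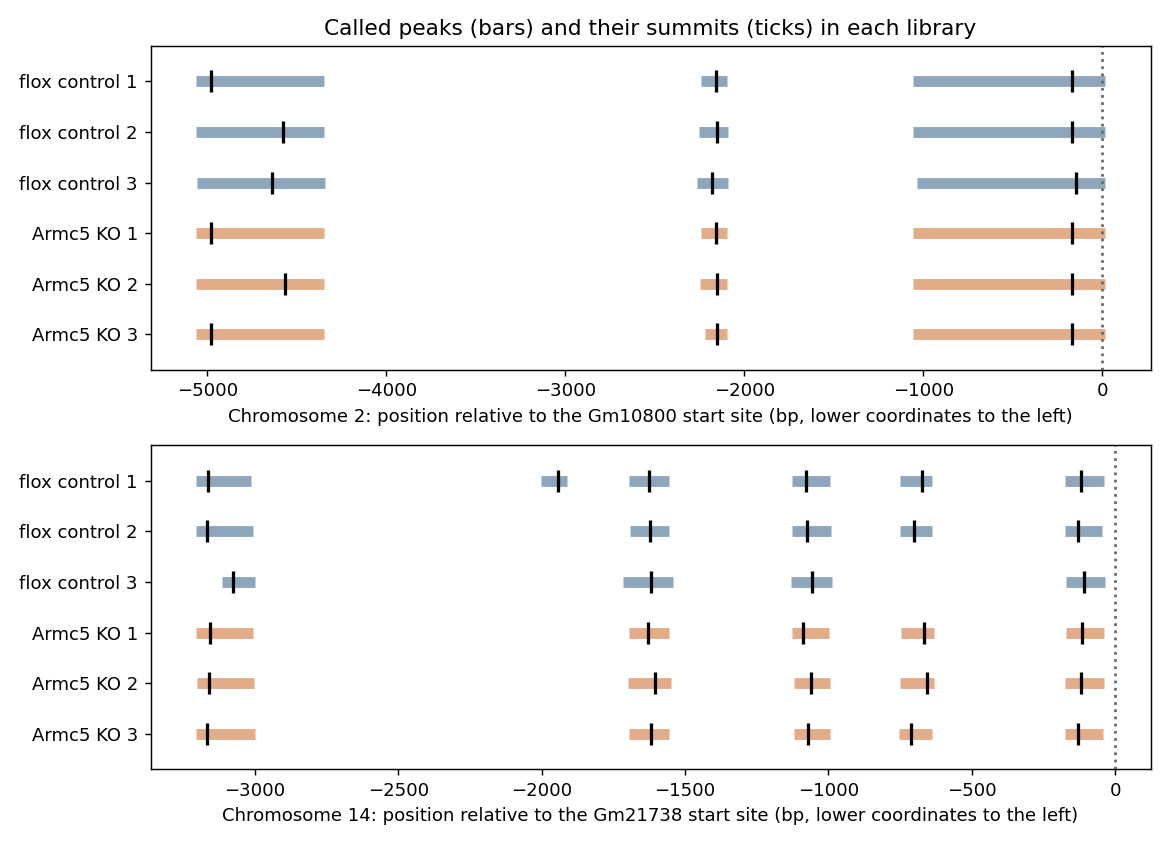
Extent of each called peak (bars) and its summit (black ticks) in every library, in bp relative to the start site of Gm10800 (top, with Gm10801 at the left) and of Gm21738 (bottom), with lower coordinates to the left. The Gm10801 summit lies in 1 of 2 places, and flox control 3 has a short peak at Gm21738 interval 1 and none at interval 5.

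Set against all intervals, the high pileups of flox control 3 at these genes stood in a library whose pileups were mostly low. Its pileup was 0.812 times the median of the other 5 libraries in the median over the 55 intervals, and 2.66 times in the median over the 7 of these genes. It lay above all 5 others in pileup at 5 of the 7 (25.5% of the 55) and below them at 0 of the 7 (36.4% of the 55). In fold it lay above all others at 4 of the 7 (32.7% of the 55) and below all others at 2 of the 7 (47.3% of the 55). The intervals were chosen on this contrast, so nothing is read from these counts. By pileup ratio, Gm10800 interval 1 (4.09) and Gm21738 interval 3 (3.77) ranked 2 and 3 of 55, after a Gm10722 interval at the start of chromosome 9 (4.64).

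The 7 intervals held 43.5% of the summed summit pileup of flox control 3 over the 55 intervals (Clopper-Pearson 95% interval 42.6 to 44.4%, counting error only). In the other libraries they held 20.6 to 25.2%, and the genes were picked on this contrast, so the error range is no test of it. The 4 Gm21738 intervals among them held 7.52% in flox control 3 (7.04 to 8.01%) and 4.82 to 6.51% in the others, a much smaller gap than on chromosome 2. The sum includes the chromosome 2 intervals, 36.0% of it in flox control 3 and 15.8 to 19.1% in the others. That lowers the Gm21738 share of flox control 3. Relative to the median of the other-named intervals of the same library, the pileup of Gm10800 interval 2 was 65.3 in flox control 3 and 14.05 to 18.5 in the others. That median was lowest in flox control 3 (38 fragments), although its summed pileup was highest. The size of this gap therefore depends on the scaling.

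**Figure D4:**
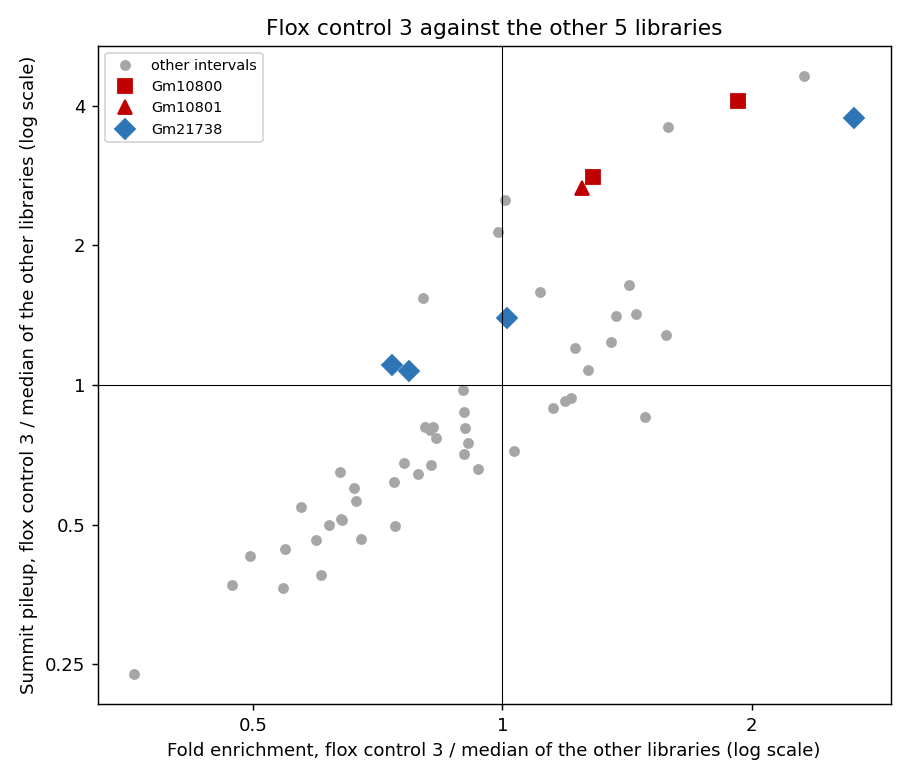
Flox control 3 over the median of the other 5 libraries, as fold enrichment (horizontal) and summit pileup (vertical), both on log axes, for the 55 intervals called in all 6 libraries. Red and blue mark the 7 intervals of the 3 genes, all at or above 1.07 in pileup, while 2 of the Gm21738 intervals lie below 1 in fold.

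The intervals whose fold varied most like each locus were sought by Pearson correlation of log2(fold + 1) over the 6 libraries, with the mean profile of the locus, a description in which 1 library carries much of the weight. That mean does not stand for each interval of a locus: Gm21738 interval 3 correlated with interval 4 at -0.94 and with interval 1 at -0.79. Gm10800 interval 1 correlated with interval 2 at 0.56, and at -0.98 without flox control 3. For the chromosome 2 locus these were an interval at Gm10722 on chromosome 9 (3000308 to 3000649, r = 0.98), 1 at CT010467.2 on chromosome 17 (39848408 to 39848787, r = 0.98) and 1 at Sfi1 on chromosome 11 (3193276 to 3193504, r = 0.91). Without flox control 3 the correlations were 0.58, -0.43 and 0.82. The Gm10722 interval had 69, 74 and 320 fragments in the flox controls 1, 2 and 3, and 46, 70 and 56 in Armc5 KO. For the chromosome 14 locus they were a pair of intervals at CT010467.1 on chromosome 17 (39843039 to 39844849 and 39844943 to 39846788, r = 0.98 for both) and another at Gm10722 (3000822 to 3001052, r = 0.94). Without flox control 3 these were 0.95, 0.91 and 0.76. The CT010467.2 interval and the second CT010467.1 interval carry ribosomal RNA annotation in the table, while the first CT010467.1 interval is annotated as intergenic. At the CT010467.1 intervals flox control 3 was the highest in fold (3.53 and 2.56) but not in pileup (396 and 287 fragments, against 313 to 536 and 232 to 423).

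The study's own comparison, Armc5 KO against flox control, was made for the 55 intervals called in all 6 libraries, with limma on log2(fold + 1). None of the 7 intervals of these genes passed, and 0% of the 55 did. At an unadjusted p under 0.05 there were 0 of the 7, against 1.82% of the 55. The adjusted p was 0.949 for each of the 7. Their median log2 difference was -0.067, beside -0.053 over the 55, and the groups overlapped at all 7 (folds of Armc5 KO lay wholly below those of flox control at 5.45% of the 55). With pileup centred on each library's other-named intervals, the median was -0.50 beside -0.095 over the 55. All 7 were then lower in Armc5 KO, with a log2 difference of -0.78 at Gm10800 interval 1, -0.66 at Gm21738 interval 3, -0.55 at Gm10800 interval 2 and -0.50 at Gm10801. None passed (limma adjusted p from 0.922 to 0.986). Flox control 3 had the highest such pileup at all 7, and this setting was not fitted without it. It also had the lowest median over the other-named intervals (38 fragments). The genes were picked partly on flox control 3, so the lower values in Armc5 KO are not independent of that choice. As a ratio to the median of other-named intervals, Gm10800 interval 2 was 15.9 and 14.05 in flox controls 1 and 2. It was 18.5, 16.5 and 15.4 in Armc5 KO 1, 2 and 3. Gm10801 was 5.03 and 5.05 against 6.31, 5.66 and 5.27. Gm21738 interval 3 was 2.64 and 2.14 against 2.71, 2.74 and 2.6. Gm10800 interval 1 was 3.65 and 5 against 4.4, 5.51 and 3.51. With flox control 3 left out, these ratios were thus wholly higher in Armc5 KO at Gm10801. The groups overlapped at the other intervals, and none was wholly lower in Armc5 KO.

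The largest difference in size was at Gm21738 interval 3, where the fold averaged 24.1 ± 15.5 for flox control and 15.8 ± 0.932 for Armc5 KO (SD, n = 3 each). Its log2 difference was -0.42 (SE 0.38, 95% interval -1.31 to 0.48, limma adjusted p = 0.949). Without flox control 3 the fold of flox controls was 15.1 ± 1.10 (SD, n = 2) and the log2 difference became 0.057 (95% interval -0.29 to 0.40, limma adjusted p = 0.948). Gm10800 interval 1 came next, with 6.48 ± 2.14 for flox control and 4.94 ± 0.755 for Armc5 KO (SD, n = 3 each) and a log2 difference of -0.30 (95% interval -0.80 to 0.20). Without flox control 3 it was -0.090 (-0.45 to 0.27), and without flox control 1 it was -0.51 (-0.95 to -0.061, unadjusted p = 0.031, limma adjusted p = 0.878). With the replicate number as a block the 95% interval was -0.59 to -0.011 (unadjusted p = 0.042, limma adjusted p = 0.687).

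The tallest interval, Gm10800 interval 2, had a fold of 20.4 ± 3.59 for flox control and 18.6 ± 1.09 for Armc5 KO (SD, n = 3 each). Its log2 difference was -0.12 (-0.56 to 0.32), and 0.014 (-0.30 to 0.33) without flox control 3. Gm10801 gave -0.067 (-0.39 to 0.25), and 0.030 (-0.23 to 0.29) without it. Gm21738 interval 1 gave 0.17 (-0.21 to 0.56), which was -0.031 with centred pileup. Interval 4 gave 0.026 (-0.42 to 0.47), which was -0.20 with centred pileup, -0.013 with median-centred fold and -0.11 without flox control 3. Interval 6 gave -0.024 (-0.40 to 0.35), which was 0.015 with pileup divided by background and 0.0016 without Armc5 KO 2. A missed threshold in 3 against 3 libraries does not show that the groups are alike.

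**Figure D5:**
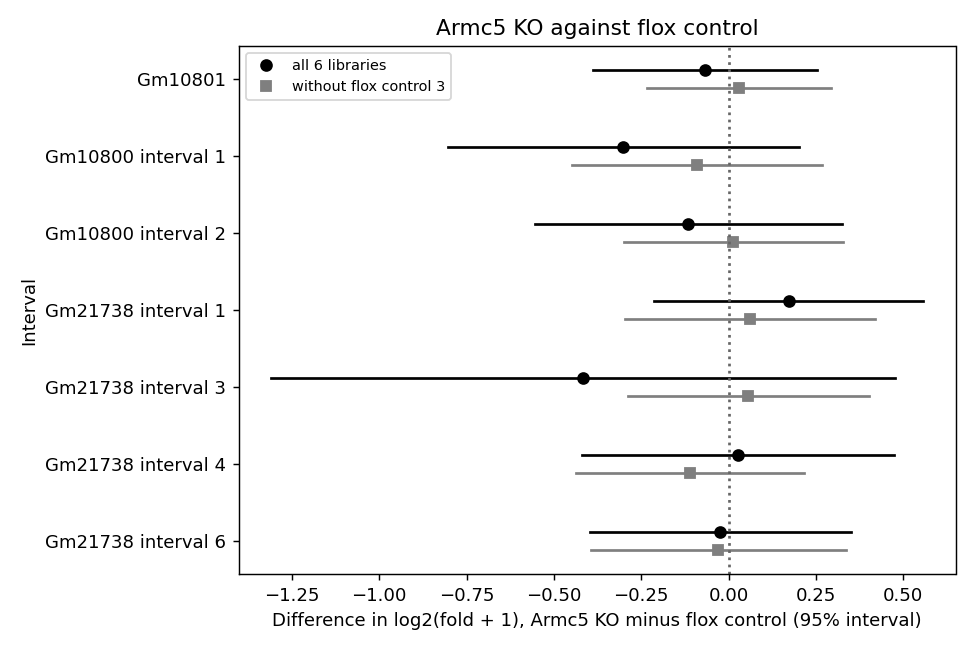
Difference in log2(fold + 1), Armc5 KO minus flox control, with its 95% interval from limma, for the 7 intervals called in all 6 libraries, with all libraries (black circles) and without flox control 3 (grey squares). Every interval covers 0, and leaving out flox control 3 moves Gm21738 interval 3 from -0.42 to 0.057.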

How the data were processed

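ATAC-seq libraries of mouse epididymal white adipose tissue (3 flox control, 3 Armc5 KO) were read from 1 deposited table. The submitters' processing notes name mm10 and the tools MACS2 2.2.7.1, Bowtie2 2.3.5.1, cutadapt 4.0 and deepTools 3.5.1, with no role or order. Insertion shift, duplicate and mitochondrial read removal and excluded regions are not given in the sources used here. Per the file headers, the authors called peaks in each library and gave each a fold ratio over background. Each peak also had −log10 values of p and q, a start, an end and a summit offset. The headers name no normalization of the fold between libraries, and none was added in the main comparison. WT columns were matched to the flox samples of the same number, flox and KO being the only genotypes in the titles. Starts were taken as counted from 0 and are printed counted from 1.

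Pileup and background were solved from fold = (pileup + 1)/(background + 1) and a Poisson tail. All 519 peaks matched within 0.005 of the deposited −log10 p, 512 with a single whole number. Total depth is unknown. Fold was compared with limma 3.58.1 (R 4.3.3, moderated test with a trend, Benjamini-Hochberg at 0.05) on log2(fold + 1), for intervals called in all 6 libraries with a mean fold above 1, which removed none of 55. The solver and the limma fit were tested on simulated data. Over the 55 intervals, pileups of Armc5 KO 1 and 2 agreed within sampling noise (a chi-square of 0.881 for each degree of freedom). At the 7 intervals of these genes the value for that pair was 2.10. For Armc5 KO 1 and 3 it was 1.04 over the 55 and 0.321 at the 7. Among pairs of different groups, over the 55, those of flox control 1 with Armc5 KO came near 0.881 (1.12 to 1.75). Those of flox control 2 (3.51 to 3.91) and flox control 3 (29.98 to 35.3) did not. Since some pairs of different groups came near, Armc5 KO 1 and 2 were both kept and averaging them was an alternative.

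The genes, lists and rules were chosen with earlier results of these data known. Named intervals are all those of the 3 genes, any other within 1 Mb, and the 3 closest profiles per locus. Alternatives were pseudocounts, the filter, left-out libraries, a replicate block, centring, the local ratio, several peaks averaged, and stricter calls.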

Additional observations from a re-analysis of the deposited data

How the results depend on the processing

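The count of intervals changed between Armc5 KO and flox control was 0 with limma, 1 with the replicate number as a replicate block, and 0 to 1 over the 6 settings that leave out a library (1 without Armc5 KO 3). Of Gm10800, Gm10801 and Gm21738 the count was 0 under all 15 alternatives, with adjusted p from 0.624 to 0.997. Same-numbered libraries deviated together with correlations of 0.026, 0.61 and 0.28, and differently numbered ones with -0.47 to 0.19. These values do not settle whether the numbers are pairs. The labels do not say so, and the main fit therefore did not take them as pairs. Leaving out each library, the log2 difference ranged from -0.12 to 0.030 at Gm10801, -0.22 to 0.014 at Gm10800 interval 2, -0.69 to 0.057 at Gm21738 interval 3, -0.11 to 0.096 at interval 4 and -0.051 to 0.0016 at interval 6. The sign changed without flox control 3 at the first 4 and without Armc5 KO 2 at interval 6. With no change of sign, it ranged from -0.51 (without flox control 1) to -0.090 (without flox control 3) at Gm10800 interval 1, and from 0.062 (without flox control 3) to 0.30 (without flox control 1) at Gm21738 interval 1. It also changed with centred pileup at Gm21738 intervals 1 (-0.031) and 4 (-0.20), with median-centred fold at interval 4 (-0.013) and with the local ratio at interval 6 (0.015). Flox control 3 over the median of the others, in the median of 7 intervals, was 1.25 by fold, 2.66 by pileup and 1.56 by median-centred fold; pileup, unlike fold, is not divided by the background. Calls per library could not change at a −log10 q of 10, since the lowest was 18.7. Centred pileup, local ratio, averaging Armc5 KO 1 and 2, and the share over all called intervals were added after seeing the data. Pileups of 47 to 161 fragments at the lower Gm21738 peaks carry the larger counting error.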

Other observations

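The 3 Gm10722 intervals on chromosome 9 also varied among themselves in flox control 3. Its pileup there was 4.64, 3.61 and 1.54 times the median of the other libraries, over a local background 2.16, 2.12 and 2.11 times theirs. The background ratio at Gm10800 and Gm10801 was 2.11. At Gm10722 too, as at Gm21738, the fold of flox control 3 was above all others at some intervals (2.31 and 1.59 times the median) and below all others at another (0.802 times).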
